A study of Caenorhabditis elegans with 2 samples.

Results

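Homeobox genes encode transcription factors that bind DNA through a homeodomain, and 71 of the 19973 protein-coding genes of Caenorhabditis elegans were examined here for regions enriched with LIN-13. The 71 were the genes named ceh followed by a number, together with lin-39, mab-5, egl-5, nob-1, php-3, vab-7, pal-1 and unc-62. The choice was made by gene name and used no measured value, although earlier results of these data were known when it was made. LIN-13 has zinc fingers and belongs to the class B synthetic multivulva proteins, repressors that restrain vulval induction and germline genes in somatic cells. It was measured by chromatin immunoprecipitation followed by sequencing (ChIP-seq). The material was embryos of mixed stages from strain OP51 (unc-119(ed3) III; wgIs51), taken as whole organisms of both sexes. The transgene wgIs51 carries LIN-13 fused to eGFP, and the labels do not say which promoter drives it. The antibody field of the labels reads lin-13, so whether LIN-13 or the tag was precipitated cannot be told from it.

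There were 2 biological replicates in 1 group, with no second condition and no untreated embryos, and the control that the labels point to was not analysed here. The deposited lists hold regions with a peak summit, and each region has a signal from the authors' peak caller by which it was ranked within its list, 1 being the strongest. Lists for replicate 1, replicate 2 and both replicates pooled held 30000 regions each, a fixed length that reaches into weak regions. An additional list held the 1534 regions that passed an irreproducible discovery rate (IDR) step, which compares the ranks of regions between replicates, and these were the first 1534 ranks of the pooled list. Signals in the IDR list ranged between 32.8 and 488, with a median of 49.5. A summit of replicate 1 lay within 100 bp of 1436 of its summits and a summit of replicate 2 within 100 bp of 1467, and 790 of its regions were among the first 1534 ranks of both replicates. The lists hold no read counts, so the depth is unknown. Embryos were whole and of mixed stages, so the cells in which LIN-13 was present at a gene cannot be told apart.

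Hox genes give cells their identity along the head-to-tail axis, and in C. elegans they also act in migrating neuroblasts, the vulva and the male tail. Hox proteins bind DNA together with cofactors of the PBC type (extradenticle in Drosophila, Pbx in mammals) and the MEIS type (homothorax in Drosophila), which are homeodomain proteins themselves. Other homeobox classes, such as LIM, POU, paired-like, sine oculis, CUT and NK-like genes, specify neurons, muscles and parts of the pharynx.

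The promoter window of a gene ran from 1000 bp before to 200 bp after each of its annotated transcription start sites (TSSs). IDR regions had their summit in the window or body of 4 homeobox genes, ceh-20, ceh-39, ceh-38 and unc-62. Their sequences are shown where they lay outside untranslated regions, together with 30 bases of the unc-62 region and with the intergenic stretch that held the summit of the Hox gene php-3. All are from WBcel235 (ce11), on the forward strand, at chrIII:6978967-6979250 for ceh-20, chrX:1856258-1856541 for ceh-39, chrV:4508155-4508184 for unc-62 and chrIII:12077557-12077792 for php-3. Capitals mark matches, on either strand, to 4 motifs. The E2F-like motif was searched as TTCCCGC, in a second spelling as TTCGCGC, in another as TTGCCGC and in the last as TTGGCGC. The GAGA repeat was searched as GAGAGAGA. The cell cycle homology element was either TTCGAA or its variant with TTTGAA. The PBC-Hox element was TGATNNAT, where N is any base.
ceh-20: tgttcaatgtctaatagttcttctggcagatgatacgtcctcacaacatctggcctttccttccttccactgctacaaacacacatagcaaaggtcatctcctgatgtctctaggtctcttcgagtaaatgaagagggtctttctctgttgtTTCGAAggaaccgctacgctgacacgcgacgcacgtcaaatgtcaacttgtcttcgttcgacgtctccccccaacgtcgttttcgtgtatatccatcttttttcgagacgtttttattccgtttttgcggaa
ceh-39: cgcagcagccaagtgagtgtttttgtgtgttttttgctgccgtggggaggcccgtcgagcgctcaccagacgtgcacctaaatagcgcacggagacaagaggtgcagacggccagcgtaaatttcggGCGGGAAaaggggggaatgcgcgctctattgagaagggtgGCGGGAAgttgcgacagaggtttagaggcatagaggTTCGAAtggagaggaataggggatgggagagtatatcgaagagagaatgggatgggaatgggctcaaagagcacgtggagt
unc-62: ggaaaaattgtGAGAGAGAgtgaaaaagat
php-3: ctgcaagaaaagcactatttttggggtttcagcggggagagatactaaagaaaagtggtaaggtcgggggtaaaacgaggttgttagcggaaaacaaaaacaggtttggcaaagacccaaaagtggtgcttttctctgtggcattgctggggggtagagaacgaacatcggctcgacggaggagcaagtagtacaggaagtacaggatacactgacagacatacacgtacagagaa

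The ceh-39 region held the E2F-like motif at 2 places, each read as GCGGGAA on the forward strand, 15 and 25 bp from the summit, and TTCGAA 61 bp from it. In the ceh-20 region TTCGAA began 10 bp from the summit, and no other of the motifs was present. The unc-62 region held GAGAGAGA 46 bp from its summit and TGATGGAT, a match to the PBC-Hox element, 116 bp from it in the part not printed. No match to any of the motifs was found in the 284 bp regions of ceh-38 and php-3. No match of one motif overlapped a match of another in these regions. Among the 1534 IDR regions, each taken as 284 bp, 23.1% held the E2F-like motif, against 14.1% of the 28466 pooled regions ranked below them. The GAGA repeat was in 10.4% of the IDR regions and 4.02% of the regions below, the cell cycle homology element in 55.6% and 58.6%, and the PBC-Hox element in 12.2% and 16.4%. The cell cycle homology element was thus present in over 50% of both sets of regions, so a single match to it is common. The GC content was 55.3% in the ceh-39 region, 48.2% at unc-62, 47.9% at php-3, 45.4% at ceh-20 and 43% at ceh-38, against medians of 41.2% over IDR regions and 39.8% over the pooled regions below them.

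An IDR summit lay in the promoter window of 3 of the 71 homeobox genes, or 4.23% (exact 95% interval over genes 0.88% to 11.9%), against 8.15% of all protein-coding genes. At the share of all genes 5.79 homeobox genes would have had one, and the interval of the homeobox genes includes that share. In the gene body, from the annotated start to the end, an IDR summit was found in 2 homeobox genes, or 2.82% (0.343% to 9.81%), against 1.54% of all protein-coding genes. The body count was of ceh-38, whose summit was also in its window, and unc-62. Both intervals include the share of all genes, so neither count differed from it by more than 71 genes can resolve. Intervals here cover the number of genes only and not error in the reads.

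No Hox gene was among them. The window of none of the 6 Hox genes held an IDR summit, nor did any of their bodies, and 6 genes with none allow a share of up to 45.9% (exact 95% interval). The nearest IDR summit was 12239 bp from a TSS of mab-5, 13946 bp from one of lin-39, 17436 bp from that of ceh-13, 18911 bp from that of php-3, 20790 bp from one of nob-1 and 40307 bp from one of egl-5. Over all 71 homeobox genes the median distance to the nearest IDR summit was 25300 bp and 80.3% were over 10000 bp away, against a median of 23693 bp and 71% of all protein-coding genes.

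Weaker regions were present at 4 of the 6 Hox windows in the pooled list, and the same 4 genes had a window region in both replicate lists (66.7% each, exact 95% interval 22.3% to 95.7%). The shares of all protein-coding genes, 41.3% in the pooled list and 26.2% in both replicates, lie inside that interval, so these counts cannot be told from the background. The gene lin-39, which acts in the vulval precursor cells and mid-body neuroblasts, had its best window region at rank 6529 of the pooled list, with the summit 149 bp upstream of 1 of its TSSs and inside an intron. That site was at rank 3384 in replicate 2 and had no summit within 100 bp in replicate 1, whose best region in the lin-39 window was at rank 25548. The posterior Hox gene php-3, of the Abdominal-B type, had a summit 108 bp upstream of its TSS, in the intergenic stretch printed above between php-3 and nob-1. It ranked 8378 in the pooled list, 5347 in replicate 1 and 10339 in replicate 2. This was the only Hox window site with a summit within 100 bp in both replicates.

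The gene ceh-13, the labial type Hox gene that acts in anterior embryonic cells, had window summits 864 and 618 bp upstream of its TSS, at pooled ranks 10397 and 19883. The first had a partner in replicate 1 (rank 3111) and none in replicate 2, and the second had a partner in replicate 2 (rank 10518) and none in replicate 1. The gene nob-1, a posterior Hox gene needed to form the rear of the embryo, had window ranks of 17864 in the pooled list, 11337 in replicate 1 and 7690 in replicate 2. Inside the nob-1 gene, replicate 1 had a region at rank 1782 that was at rank 14806 in the pooled list and had no summit within 100 bp in replicate 2. No pooled window region of ceh-13 or nob-1 had a summit within 100 bp in both replicates.

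No window region in any list was found at mab-5, which acts in posterior neuroblasts and epidermis, or at egl-5, which acts in the tail. In the body of mab-5, replicate 1 had a region at rank 4542 and replicate 2 at rank 17808, and the pooled list had none. The body of egl-5 had a region at rank 4668 of replicate 1 alone. The plot of summit positions shows the scattered places of these regions around the Hox TSSs.

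**Figure D1:**
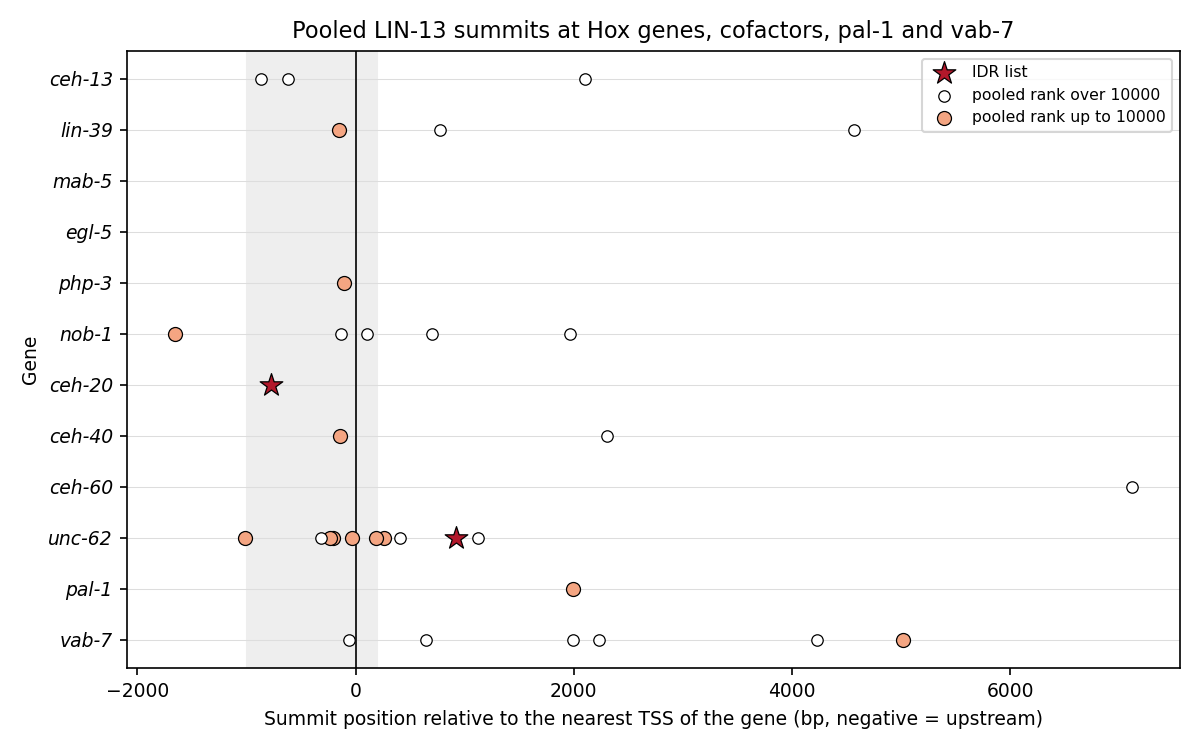
Summits of pooled LIN-13 regions around the 6 Hox genes, the 4 PBC and MEIS cofactors, pal-1 and vab-7, plotted by distance in bp from the nearest TSS of the gene, negative values lying upstream. The grey band is the promoter window, stars are IDR regions, filled points have a pooled rank up to 10000 and open points a rank over 10000; the stars are at ceh-20 and unc-62, and mab-5 and egl-5 have no point.

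Of the 4 Hox cofactors, ceh-20 carried an IDR summit in its window and unc-62 carried one in its body. Each count was a share of 25% (interval 0.631% to 80.6%). All protein-coding genes had 8.15% in the window and 1.54% in the body. The 6 Hox genes had none in either place (0% to 45.9%). The intervals of the cofactors include the shares of all genes and overlap those of the Hox genes. These counts thus cannot tell the cofactors from the other genes, and a difference between lists this small was not tested. The gene ceh-20 (WBGene00000443) encodes the extradenticle type partner of Hox proteins. Its IDR region at chrIII:6978967-6979250 had a signal of 53.7 and its summit at position 6979109, in intergenic sequence 775 bp upstream of the only TSS of the gene. It ranked 641 in the pooled list, 682 in replicate 1 and 451 in replicate 2, the most even ranks of the 4 genes. No other protein-coding gene had a window over it, and the next coding TSS, of F31E3.6, was 2972 bp away.

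The MEIS type gene unc-62 (WBGene00006796) has 15 annotated TSSs spread along a gene of 13989 bp. Its IDR region at chrV:4507978-4508261, with a signal of 35.8, had the summit 916 bp downstream of the nearest TSS and 10659 bp downstream of the first, in an exon annotated as 5′ untranslated region. It ranked 1334 in the pooled list and 1061 in replicate 2. In replicate 1 no summit lay within 100 bp, and the nearest was 438 bp away at rank 11106, so the presence of this region rests on replicate 2. The gene held more regions besides. Its best window region was at rank 3268 of the pooled list, 204 bp upstream of the first TSSs. Replicate 2 had that site at rank 4204, and replicate 1 had no summit within 100 bp of it. Another in the body, at pooled rank 2099, recurred at rank 3870 in replicate 1 and 5941 in replicate 2. Of the 62 pooled window regions of all homeobox genes, unc-62 had 5, over a window of 8650 bp against a median of 1201 bp.

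The other PBC genes had no IDR summit. For ceh-40, the second extradenticle type gene of the worm, the window region was at pooled rank 5136, 141 bp upstream of the TSS, with rank 1168 in replicate 1 and no window region in replicate 2. That region was also in the window of F17A2.13. The gene ceh-60, a regulator of yolk protein genes in the adult intestine, had no window region in any list and a body region at pooled rank 20877, with best body ranks of 9886 in replicate 1 and 11532 in replicate 2. The nearest IDR summit was 73248 bp from ceh-40 and 151539 bp from ceh-60.

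The caudal type gene pal-1, which specifies posterior blastomeres of the early embryo, had no window region in any list. An intron of pal-1 held a region at pooled rank 5716, which was at rank 27827 in replicate 1 and 6078 in replicate 2. The even-skipped type gene vab-7, which patterns posterior body muscle and epidermis, had a window region at pooled rank 21600, 58 bp upstream of its TSS, with rank 7607 in replicate 2 and none in the window in replicate 1. The strongest of the 5 regions in its body was at pooled rank 9405 and at rank 6861 in replicate 2, with no summit within 100 bp in replicate 1. No IDR summit was nearer than 50915 bp to pal-1 or 10699 bp to vab-7.

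Proteins of the CUT class have a cut domain beside the homeodomain. IDR summits lay in the windows of 2 of its 6 genes, ceh-39 and ceh-38. That share was 33.3% (interval 4.33% to 77.7%), against 8.15% of all protein-coding genes. The interval includes the share of all genes, so 6 genes cannot tell this count from it. The gene ceh-39 (WBGene00000460) is an X signal element, one of the X-linked genes whose dose is read in sex determination. Its IDR region at chrX:1856258-1856541 had a signal of 50.5 and its summit at position 1856400, 228 bp upstream of the only TSS, in intergenic sequence. It ranked 734 in the pooled list, 355 in replicate 1 and 1319 in replicate 2. No other protein-coding window covered it, and the next coding TSS, of T26C11.9, was 2551 bp away.

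The region of ceh-38 (WBGene00000459), at chrII:6951466-6951749, had a signal of 43.8 and its summit at position 6951608, 11 bp upstream of the nearest of the gene's 11 TSSs and in a 5′ untranslated region. It ranked 963 in the pooled list, 701 in replicate 2 and 1747 in replicate 1, where it fell outside the first 1534 ranks. It also lay in the window of malt-1, 308 bp upstream of the TSS of that gene, so the region cannot be given to one of the 2 genes. Among the other CUT genes, ceh-21, which lies next to ceh-39 on the X chromosome, had a window region at pooled rank 5060, 617 bp upstream of the TSS, with rank 8677 in replicate 2 and none in the window in replicate 1. Its TSS was 3664 bp from the ceh-39 summit, and that of ceh-41, in the same group of genes, was 7725 bp from it. The windows of ceh-41 and ceh-49 held a region in 1 replicate each, at rank 26633 of replicate 2 and rank 22574 of replicate 1. At ceh-48, a neuronal gene, no list held a region in the window or the body.

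**Figure D2:**
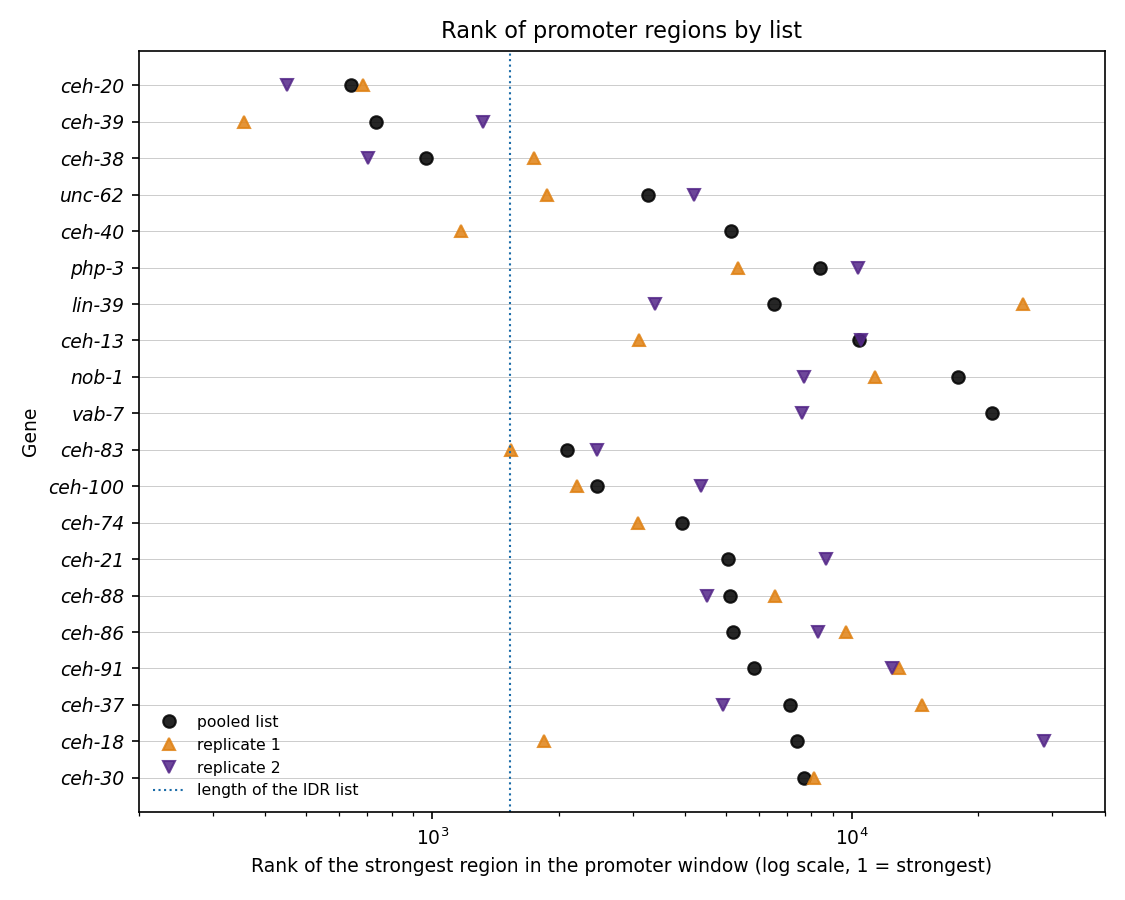
Rank of the strongest region in the promoter window of 20 homeobox genes, on a log axis where 1 is the strongest, in the pooled list (circles), replicate 1 (upward triangles) and replicate 2 (downward triangles). The dotted line at 1534 is the length of the IDR list; ceh-20, ceh-39 and ceh-38 have their pooled circle to its left, and the window ranks of lin-39 and ceh-18 lie far apart in the replicates.

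In the remaining classes no window or body held an IDR summit. The 19 NK-like and other Antennapedia class genes had a pooled window region at 10 (52.6%, interval 28.9% to 75.6%), the first at ceh-30 (rank 7663) and the last at rank 27259. The gene ceh-30, a BarH type gene that protects male cephalic companion neurons from cell death, had that region 305 bp upstream of a TSS, with rank 8097 in replicate 1 and no window region in replicate 2. The 8 paired-like genes had 5 (62.5%, interval 24.5% to 91.5%), the first at ceh-37, an Otx type gene of sensory neurons, at rank 7129. That site was at rank 4916 in replicate 2 and had no summit within 100 bp in replicate 1, whose best region in the ceh-37 window was at rank 14711. Both POU genes had one. That of ceh-18, which acts in gonadal sheath cells to hold oocytes in meiotic arrest, was at pooled rank 7377 and at rank 1849 in replicate 1, while the best window region in replicate 2 was at rank 28726. The second of these POU genes, ceh-6, had best window ranks of 13621 in the pooled list, 11458 in replicate 1 and 19695 in replicate 2. Its pooled site at rank 13621 had no summit within 100 bp in either replicate. Of the 3 genes of the sine oculis class, ceh-33 and ceh-34 had pooled window regions at ranks 19329 and 24046, and ceh-32 had none. The LIM gene ceh-14, a neuronal gene, had no region in window or body in any list.

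A further 20 homeobox genes were given no class, and 14 of them had a pooled window region. That was 70% (interval 45.7% to 88.1%), against 41.3% of all protein-coding genes, and the difference was not tested. The first homeobox gene below the IDR list was among these 20 genes. At ceh-83 a summit 16 bp downstream of a TSS ranked 2095 in the pooled list with a signal of 26.6, 1538 in replicate 1 and 2470 in replicate 2, so it was 4 ranks beyond the first 1534 in replicate 1. The next was ceh-100, at pooled rank 2472 and at rank 2214 in replicate 1, in a site 812 bp upstream of its TSS that was also in the window of lips-15. That site had no summit within 100 bp in replicate 2, whose best region in the ceh-100 window was at rank 4376. The window ranks of ceh-74 were 3937 in the pooled list and 3094 in replicate 1, with none in replicate 2. Those of ceh-88 were 5120, 6542 and 4498 in the pooled list, replicate 1 and replicate 2. For ceh-86 they were 5194, 9670 and 8312, and for ceh-91 5835, 12905 and 12471, in the same order. Each is the best rank anywhere in the window, so the sites may differ between lists. The pooled sites of ceh-88 and ceh-86 had no summit within 100 bp in replicate 1. All of these regions ranked below the IDR list. Among the genes named in this paragraph, only the pooled window sites of ceh-83 and ceh-91 had a summit within 100 bp in both replicates.

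Over the 71 genes, a larger share than of all protein-coding genes had a pooled window region, while the share with an IDR region was not larger. A pooled summit lay in the window of 44 of the 71 genes, or 62% (49.7% to 73.2%), against 41.3% of all protein-coding genes. Replicate 1 had a summit in 38 homeobox windows, or 53.5% (41.3% to 65.5%), against 42.8% of all protein-coding genes, a share that the interval includes. Replicate 2 also had one in 38, with the same interval, which lies just above the 40.7% of all protein-coding genes. Both replicates had a window summit, at any place in the window, at 25 homeobox genes, or 35.2% (24.2% to 47.5%). All protein-coding genes had 26.2%, which that interval includes, so this count cannot be told from it. When the summits of both replicates had to lie within 100 bp of each other, 9 of the 71 homeobox genes had such a site, against 15.7% of all protein-coding genes. No interval was computed for this count, so it is not read as lower. In the gene body the pooled list had a summit at 41 homeobox genes, or 57.7% (45.4% to 69.4%), against 45.1% of all protein-coding genes. The homeobox genes were longer, with a median of 2944 bp against 2027 bp over all protein-coding genes. Per 100 kb of gene body there were 31 pooled regions in homeobox genes and 30.7 in all protein-coding genes, so the densities over gene bodies were nearly equal.

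Among the first 5000 pooled ranks the homeobox share was the lower one, with 7 genes, or 9.86% (4.06% to 19.3%), against 16.2% of all protein-coding genes, a share that the interval includes. No homeobox window was reached within the first 500 pooled ranks, against 3.16% of all protein-coding genes. By 10000 ranks 18 homeobox genes were reached, or 25.4%, against 22.8%, and by 20000 ranks 36, or 50.7%, against 32.7% of all protein-coding genes. The replicates taken alone also had the higher homeobox share at 10000 ranks and beyond, but not the lower one at every step before. In replicate 1 the homeobox share was already 12.7% within 3000 ranks, against 12.2% of all protein-coding genes. There, 15.5% of homeobox genes and 15.9% of all protein-coding genes were reached within 5000 ranks, and 28.2% and 22.7% within 10000. In replicate 2 the shares were 12.7% and 14.4% within 5000 ranks, and 26.8% and 21.2% within 10000. The pooled list is made from both replicates, so these 3 courses are not independent. The median rank of the best window region, over genes that had one, was 12984 for the 44 homeobox genes and 8265 for the 8258 protein-coding genes. In the replicate lists it was 9802 against 8930 in replicate 1 and 9636 against 9290 in replicate 2, closer together than in the pooled list.

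**Figure D3:**
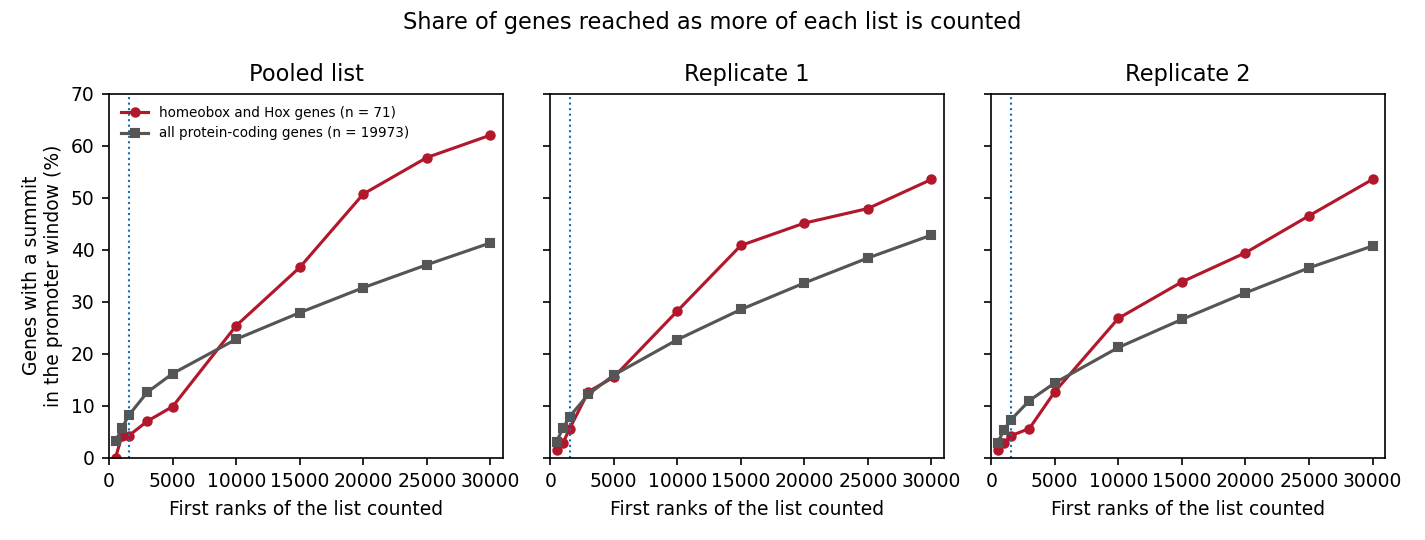
Share of genes (%) with a summit in the promoter window as more of the first ranks of the pooled list, replicate 1 and replicate 2 are counted, for the 71 homeobox genes (red circles) and all 19973 protein-coding genes (grey squares). The dotted line marks 1534 ranks; the homeobox curve is the lower one at 1534 ranks in each panel and the higher one at 10000 ranks and beyond.

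Counted per 100 kb of promoter window, homeobox genes had 2.62 regions of pooled ranks 1 to 1534, against 5.72 in all protein-coding genes. For ranks 1535 to 5000 the densities were 3.5 and 6.24, for ranks 5001 to 10000 they were 14 and 5.93, for ranks 10001 to 20000 they were 21 and 10.3, and for ranks 20001 to 30000 they were 13.1 and 10. The homeobox densities were thus the higher ones beyond rank 5000 of the pooled list. Replicate 1 had densities of 7.87 and 6.09 in ranks 1535 to 5000, 10.5 and 5.87 in ranks 5001 to 10000 and 17.5 and 10.6 in ranks 10001 to 20000, but 6.99 and 10.1 in the last 10000 ranks. Replicate 2 had 5.24 and 5.63, 9.61 and 5.95, 13.1 and 10.6, and 16.6 and 10.6 in the same 4 bands. Homeobox windows were longer, with a mean of 1612 bp against 1459 bp, and the genes had more TSSs, with a mean of 1.77 against 1.49. Among genes with a single annotated TSS, and so a window of equal length, 29 of 51 homeobox genes (56.9%) had a pooled window region, against 35.5% of 14498 protein-coding genes. Homeobox windows also held less coding exon, 15.8% against 22.5%, and more intergenic sequence, 54.3% against 49.8%, and the part of this in the counts was not tested. The homeobox genes were unevenly placed, with 25.4% of them on the X chromosome and 5.63% on chromosome IV, against 13.7% and 16.4% of all protein-coding genes.

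The recurrence of regions at the same place was counted next. Of the 62 pooled regions in homeobox windows, 24 (38.7%) had a summit within 100 bp in replicate 1, 36 (58.1%) in replicate 2 and 9 (14.5%) in both. Of the 9548 pooled regions in the windows of all protein-coding genes, 45.6%, 65.1% and 27.5% did. The homeobox shares were the lower ones in each case, but these regions were also weaker in rank, recurrence at equal rank was not compared, and the difference was not tested. The 9 regions found in both replicates were in 8 genes, ceh-20, ceh-39, ceh-38, ceh-83, ceh-91, php-3, ceh-99 and unc-62, which had 2 of them. Only the first 3 of these genes had such a region in the IDR list. The gene ceh-99 is named because it completes this count, after its values were seen. No list held a window region for 17 of the homeobox genes, and for 5 of these (ceh-5, ceh-7, ceh-12, ceh-14 and ceh-48) the gene body held none either. The same counts were not made over all protein-coding genes, so these are not read as high or low.

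Other gene sets were counted in the same way for comparison. A further 30 homeobox genes carry other names, such as the LIM gene mec-3 and the paired-like gene unc-4. They had no IDR window summit and a pooled one at 18 (60%). The intervals of these shares, 0% to 11.6% and 40.6% to 77.3%, overlap those of the 71 homeobox genes. They also include the shares of all protein-coding genes, 8.15% and 41.3%. In the first 5000 pooled ranks these 30 genes had 20% (7.71% to 38.6%), against 16.2% of all protein-coding genes. In replicate 2 they had 33.3% (17.3% to 52.8%), against 40.7%. Both lay on the other side of the share of all genes than the 71 did, but both intervals include that share. In replicate 1 they had 66.7% (47.2% to 82.7%), against 42.8%, on the same side as the 71. Of the 269 nuclear hormone receptor genes, another large family of transcription factors, 8 had an IDR window summit and 85 (31.6%) a pooled one. The IDR share was 2.97% (interval 1.29% to 5.78%), against 8.15% of all protein-coding genes. Their pooled share was below the 41.3% of all protein-coding genes, and that of the homeobox genes was above it. Of the 25 genes of the Wnt pathway, which sets the expression of several Hox genes in the worm, 4 had an IDR window summit. That was 16% (interval 4.54% to 36.1%), and the interval includes the 8.15% of all protein-coding genes. The 4 genes were mig-5 and dsh-2, which encode Dishevelled proteins, the kinase gene lit-1 and the beta-catenin gene sys-1. Their signals were 104, 46.6, 52.6 and 37.7. The mig-5 region was also in the window of cct-1, and the sys-1 region had rank 10507 in replicate 1 and 784 in replicate 2.

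The set with the highest share was that of 16 genes of the Polycomb and Trithorax type, which encode chromatin regulators that keep Hox genes silent or active. An IDR window summit was found at 10 of them (62.5%, interval 35.4% to 84.8%), against 8.15% of all protein-coding genes. A pooled one was found at 14 (87.5%, interval 61.7% to 98.4%), against 41.3%. The strongest was at set-16, an MLL type methyltransferase gene, with a signal of 165 and pooled rank 26, in a region shared with the window of drr-2. The next was at ash-2, a subunit gene of Trithorax type complexes, with a signal of 82 and ranks of 183 in replicate 1 and 398 in replicate 2. The Polycomb type genes mes-2 and mes-6, whose proteins act together in a histone H3 methyltransferase complex, had signals of 54.8 and 47.6 at pooled ranks 618 and 824. The other 6 were spat-3 (signal 58.9), sor-1 (57.7), sor-3 (52.4), lin-59 (43.9), the demethylase gene utx-1 (43.4) and sop-2 (37.3). Regions at lin-59 had ranks of 408 in replicate 1 and 3015 in replicate 2, the widest gap of the 10. No difference between these sets was tested, since they were chosen with results of these data known.

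**Figure D4:**
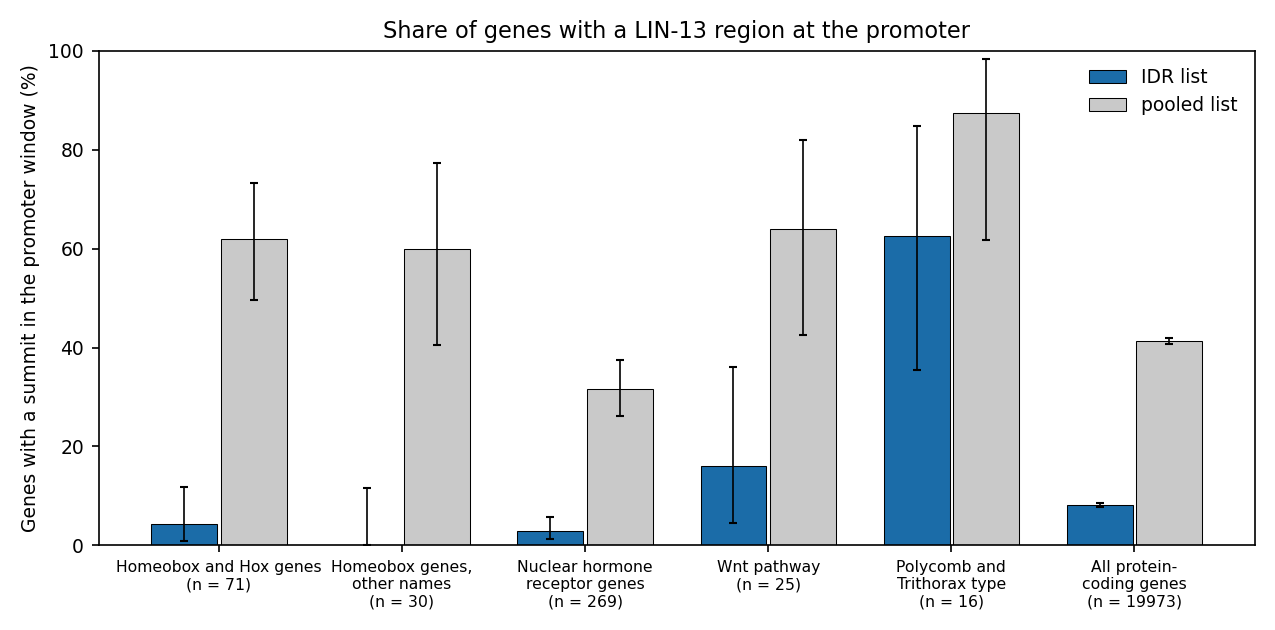
Share of genes (%) with a summit in the promoter window in the IDR list (blue) and the pooled list (grey), for the homeobox genes, 4 other gene sets and all protein-coding genes, with the number of genes under each set. Lines are exact 95% binomial intervals over genes; the homeobox genes have 4.23% in the IDR list and 62% in the pooled list, against 8.15% and 41.3% of all protein-coding genes.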

How the data were processed

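Both biological replicates of the LIN-13 ChIP-seq (n = 2) formed 1 group, with replicate numbers from the labels. Per the text deposited beside the lists, the authors called regions for each replicate and for both pooled, each against a control, and derived the final list by IDR. With the aligner, the caller and the threshold not given in the sources used here, no version is named. The deposited signal (column 7) differs in scale between lists, so it was used for ranks within a list. Lists on ce10 were not used.

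Gene models were of Ensembl release 115 on WBcel235 (ce11), on 6 nuclear chromosomes, with all positions counted from 1. A gene had a region when a summit lay between 1000 bp before and 200 bp after any TSS, or between the gene's ends, and sites were matched between lists when summits lay within 100 bp. Sequences are from the RefSeq genome of the same build. Python 3.11.15, numpy 2.4.6, pandas 2.3.3, scipy 1.17.1 and matplotlib 3.10.9 were used, and the counting was tested on simulated summits. Intervals are exact binomial intervals (95%) over genes. No test between groups was possible, so shares stand beside those of all protein-coding genes.

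The homeobox genes, their classes and the other lists were chosen with earlier results of these data known. Classes were assigned by hand from general knowledge. The locus often called ceh-44, of the CUT class, is annotated as cone-1 in the models used and was not counted. Genes named were those with an IDR summit, the Hox genes, the cofactors, pal-1, vab-7, the 10 other homeobox genes with the best pooled window rank, and genes of the other lists with an IDR window summit. Genes named outside this rule (ceh-6, ceh-14, ceh-32, ceh-33, ceh-34, ceh-41, ceh-43, ceh-48, ceh-49, ceh-99 and those without any region) illustrate a class or complete a count, and were chosen after their values were seen. Alternatives were other windows, overlap in place of summits, stricter lists, single replicates and the nearest TSS alone.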

Additional observations from a re-analysis of the deposited data

How the results depend on the processing

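The count of homeobox genes with an IDR window summit was 3 and ranged between 2 and 4 over 8 alternatives. With the first 1534 ranks of 1 replicate in place of the IDR list it was 3 without replicate 1 (ceh-20, ceh-38, ceh-39) and 4 without replicate 2 (ceh-20, ceh-39, ceh-40, ceh-43). The count in gene bodies, 2, ranged between 0 without replicate 2 and 2 without replicate 1, and was 0 in the stronger 767 IDR regions and 0 among the 790 regions in the first 1534 ranks of both replicates. Both stricter lists held the window regions of ceh-20 and ceh-39 and not that of ceh-38, while with 500 bp upstream ceh-20 fell outside. The pooled window count of 44 was 31 with 500 bp upstream (32.1% of all protein-coding genes), 50 with 2000 bp upstream and 500 bp downstream (56.6%), 7 in the first 5000 ranks, and 29 among genes with 1 TSS, an alternative chosen after seeing the data. The count with a window summit in both replicates, 25, was 13 with 500 bp upstream and 9 when the summits had to lie within 100 bp. All protein-coding genes had 18.3% and 15.7% with these settings. The higher homeobox share of the main count (35.2% against 26.2%) was thus not kept under either of them, and no interval was computed for them. The median best rank, 12984 for homeobox genes and 8265 for all protein-coding genes, was 12836 and 7749 with 500 bp upstream, 12604 and 8452 with 2000 bp, and 13133 and 8573 by overlap. No paired analysis was possible because there was 1 group and no test. The lists hold no read counts, so a gene without a region may have had one below the last rank, and the causes of these shifts were not tested.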

Other observations

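The region at ceh-43, the Distal-less type gene of the worm, and that at ceh-8, a homeobox gene of the paired-like class, were looked at after their values were seen. In the window of ceh-43, replicate 1 had a region at rank 1422, inside the first 1534, while the best window region was at rank 14360 in replicate 2 and 27259 in the pooled list. The body of ceh-8 held a region at pooled rank 2573, with rank 5993 in replicate 1 and 2535 in replicate 2, which was also in the window of col-63, a collagen gene. Homeobox genes were present on all 6 chromosomes, and their 3 IDR window regions were on chromosomes II, III and X. None was found for the 8 homeobox genes on chromosome I, the 4 on chromosome IV or the 13 on chromosome V, where 12.1%, 7.35% and 4.57% of all protein-coding genes had one, and numbers of genes this small allow no comparison.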
